A study of Mus musculus with 7 samples.

Results

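The mitotic genes described here are 34 named genes that act in entry into mitosis, on the spindle and kinetochore, and in cytokinesis. All 34 were found by symbol among 55487 entries of a table of gene expression values, of which 21961 were nuclear protein-coding genes, and all 34 passed the filter on low values that left 11444 coding genes for testing. The series asked how vesicles shed by senescent tumour cells act on growing tumours. 4T1 cells, a mouse mammary carcinoma line, carried luciferase and grew in BALB/c hosts labelled wild type, at a mammary fat pad. Tumours of about 150 mm3 were injected 6 times with 50 µl, on alternate days, and all 7 libraries are labelled day 12. The groups were saline (3 libraries), Cont sEV, which are small extracellular vesicles of 4T1 cells treated with DMSO (1 library), and TIS sEV, which are vesicles of 4T1 cells made senescent with nocodazole, a microtubule poison, at 100 ng/ml (3 libraries). Donor cells of both kinds were treated for 72 h and released for 72 h. All groups carried the same tumour line in the same host strain. Since the labels number the replicates without saying that each is its own animal, the p-values below reflect sample-to-sample spread that may be partly or wholly technical.

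As background, mitosis is driven by cyclin-dependent kinase 1 bound to A- and B-type cyclins, whose genes are switched on in G2 together with those of the spindle, the kinetochore and the cytokinesis machinery. The MuvB complex, with B-Myb and FoxM1, binds many of these promoters at a short element called the cell cycle genes homology region (CHR), often beside CCAAT boxes bound by NF-Y. The anaphase-promoting complex then destroys cyclins and other mitotic proteins, so that the cell leaves mitosis. In tumours these transcripts are widely used as a measure of proliferation, since cells outside the cycle hold little of them.

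The promoter letters were read because the genes moved together across libraries, as shown further on. The CHR letters searched were TTTGAA and the palindrome TTCGAA. On the opposite strand the first of these reads TTCAAA. RefSeq windows of build GRCm38.p6, 250 bases before to 50 bases after the annotated start, were at hand for 28 of the 34 genes (not for Aurkb, Ccna2, Foxm1, Incenp, Kif20a and Tpx2), and a gene with several starts counted once. CHR letters stood in 23 of these 28 genes (82.1%), beside 19.2% of all 32851 windows. Within 50 bases on either side of the start, a window chosen after the positions were seen, the shares were 71.4% (20 of 28) and 5.31%. CCAAT letters, on either strand, stood in 23 of 28 (82.1%), beside 37.4% of all windows. An E2F-type word, TTCCCGC on either strand, stood in 0 of 28, beside 4.60% of all windows. Among 28 matched S phase genes the counts were 7 for CHR, 19 for CCAAT and 13 (46.4%) for the E2F-type word. Among 69 matched of 83 other mitosis genes, a list described further on, CHR letters stood in 44 (63.8%) and CCAAT letters in 44 (63.8%). The E2F-type word stood in 10 of these 69 (14.5%), and CHR letters within 50 bases of the start in 35 (50.7%). Letters of different kinds overlapped at 1 place in the member windows. These are matches of letters and not shown sites. The 6 stretches below, from base 110 to base 3 before the RefSeq start, are those that hold both kinds of letters there, in capitals. GENCODE, another annotation, starts the gene within the last 7 to 29 bases shown for Cdc20, Cdk1, Prc1 and Ube2c.
Cdc20 (chr4:118437346-118437453, minus strand): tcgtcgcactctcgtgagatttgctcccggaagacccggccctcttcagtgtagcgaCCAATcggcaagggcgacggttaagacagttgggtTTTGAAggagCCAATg
Cdk1 (chr10:69352915-69353022, minus strand): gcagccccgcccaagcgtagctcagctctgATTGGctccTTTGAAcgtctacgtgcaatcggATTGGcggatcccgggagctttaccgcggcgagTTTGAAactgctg
Kif11 (chr19:37376272-37376379, plus strand): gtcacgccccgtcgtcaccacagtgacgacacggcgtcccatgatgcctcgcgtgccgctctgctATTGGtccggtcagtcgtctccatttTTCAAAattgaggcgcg
Prc1 (chr7:80294366-80294473, plus strand): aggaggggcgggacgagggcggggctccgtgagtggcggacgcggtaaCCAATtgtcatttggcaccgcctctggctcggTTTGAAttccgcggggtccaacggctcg
Top2a (chr11:99024192-99024299, minus strand): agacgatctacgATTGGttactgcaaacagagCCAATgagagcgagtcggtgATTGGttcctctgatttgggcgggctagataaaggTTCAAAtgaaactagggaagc
Ube2c (chr2:164769819-164769926, plus strand): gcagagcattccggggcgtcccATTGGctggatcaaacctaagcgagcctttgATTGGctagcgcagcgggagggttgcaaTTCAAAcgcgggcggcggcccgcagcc
In all 6 stretches the CHR letters nearest the start lie downstream of a CCAAT box, at 15 to 30 bases before the start. In Cdc20 a further CCAAT box lies between them and the start. The choice of stretches fixed a position before the start. In other genes, Bub1, Plk1 and Ttk among them, the CHR letters within 50 bases of the start lie after it.

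**Figure D1:**
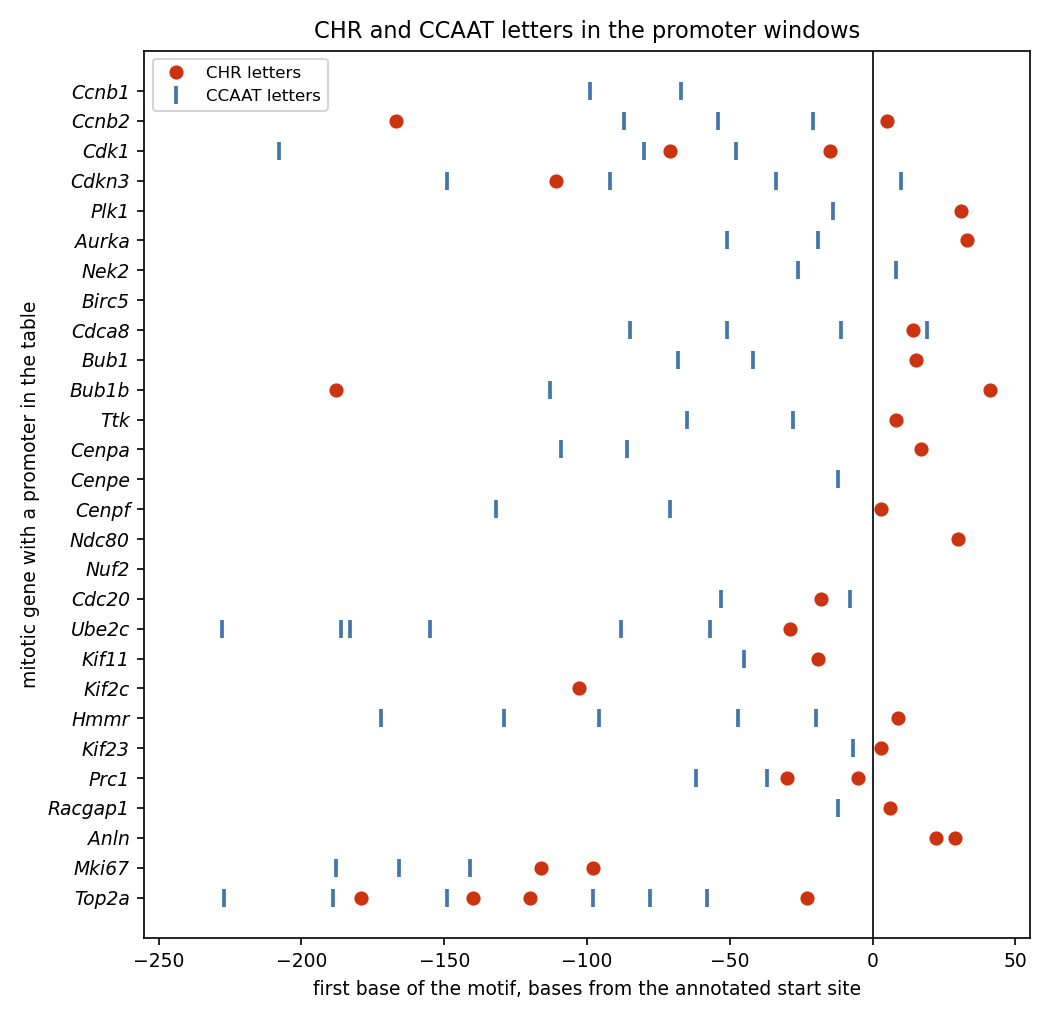
Positions of CHR letters (red points) and CCAAT letters (blue bars) in the promoter windows of the 28 mitotic genes with a RefSeq window; the x axis is the distance of the motif's first base from the annotated start in bases. The red points gather near the start, where 20 of the 28 genes hold CHR letters within 50 bases, and the blue bars lie mostly upstream of them; Birc5 and Nuf2 show neither, and the row of Prc1 holds the windows of both its annotated starts.

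Expression was given as TPM, a transcript abundance that takes account of transcript length. The values were rescaled so that nuclear protein-coding genes summed to 1000000 in each library, and every level below is rescaled TPM unless said otherwise. TPM keeps no sequencing depth, so the depth of the libraries is unknown. TIS sEV replicate 2 stood apart. Coding genes took 28.6% of its deposited TPM, against 56.8% to 74.7% in the other 6 libraries, and nuclear ribosomal RNA took 22.9%, against 0.807% to 2.40%. Across tested genes its rescaled log2 levels had a Pearson r of 0.893 to 0.933 with each other library, where pairs among the remaining 6 had 0.939 to 0.979, and all 7 columns were distinct. The epithelial markers Epcam and Cdh1 were present in every library, at 29.1 to 212 and 9.52 to 113.

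The mitotic genes were low together in the same 3 libraries, and these came from both the saline and the TIS sEV group. Saline replicate 1, TIS sEV replicate 2 and TIS sEV replicate 3 were the lowest 3 of the 7 libraries for 30 of the 34 genes, beside 5.21% of all genes tested. These 3 libraries were picked after the levels of the 34 genes were seen, so the choice favoured a high count. The same 3 had the lowest mean log2 level of the 35 S phase genes (3.94, 3.80 and 3.98, against 4.30 to 4.74 elsewhere). This was also so for the 83 other mitosis genes (3.16, 2.55 and 2.92, against 3.53 to 3.69). TIS sEV replicate 2 was the lowest library for 28 of 34, beside 46.4% of all genes tested, TIS sEV replicate 3 for 5, beside 9.64%, and saline replicate 1 for 1, beside 6.25%. Saline replicate 2 was the highest library for 18 of 34, beside 27.3%. The mean log2(level + 1) over the 34 genes was 4.25, 4.92 and 4.79 in saline replicates 1, 2 and 3, 4.83 with Cont sEV, and 4.76, 3.52 and 3.99 in TIS sEV replicates 1, 2 and 3. TIS sEV replicate 1 thus lay between saline replicates 1 and 3, and for 27 of the 34 genes its level was within the range of the saline libraries, beside 48.7% of all genes tested. Its level was 0.818 to 1.497 times the saline mean over the 34 genes (median 1.06). The same median was 0.394 in TIS sEV replicate 2 and 0.613 in TIS sEV replicate 3. In tumour RNA, fewer dividing cells and less of these transcripts per cell cannot be told apart.

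**Figure D2:**
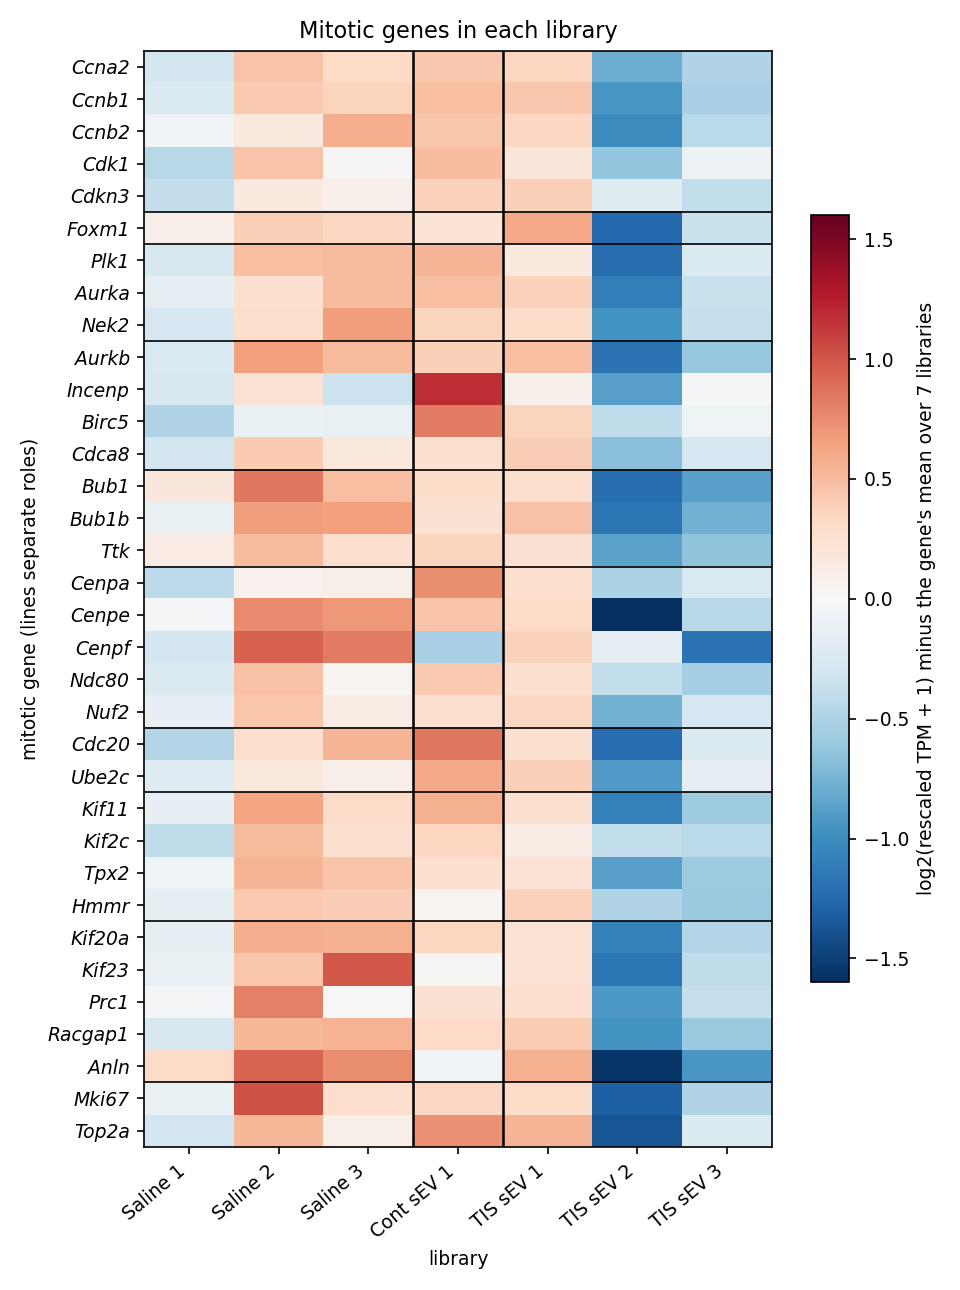
Heat map of the 34 mitotic genes (rows, grouped by role) in the 7 libraries (columns); colour is log2(rescaled TPM + 1) minus the gene's own mean over the 7 libraries, blue below and red above. TIS sEV replicates 2 and 3 and saline replicate 1 are blue for most genes, while TIS sEV replicate 1 resembles saline replicates 2 and 3.

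Against saline, 33 of the 34 mitotic genes had a fitted difference below 0 in TIS sEV tumours, beside 73.2% of all genes tested, and none passed the threshold. The median over the 34 genes was -0.58 on the log2 scale, where the median of all genes tested was -0.30. With size factors, which put the median gene at -0.013, 26 of the 34 were below 0 and the list median was -0.27. Relative to the median gene the list median of the rescaled values was -0.28, and 27 of 34 genes lay below the median gene. In limma, 0 of 34 had an adjusted p under 0.05 (lowest 0.317), as did 0 of all 11444 genes (0.0%). At an unadjusted p under 0.05, 2 of the 34 were lower (5.88% of them), beside 12.6% of all genes tested, and 0 were higher, beside 3.03%. For 0 of the 34 did all TIS sEV libraries lie below all saline libraries, beside 19.6% of all genes tested, and for 0 did all lie above, beside 5.39%. With library weights estimated from the data, limma called 22 of the 34 as lower, beside 32.9% of all genes. Those weights were 5.13 for TIS sEV replicate 3 against 0.294 and 0.188 for replicates 1 and 2, so that the TIS sEV mean there is close to 1 library. Leaving out TIS sEV replicate 2 gave a list median of -0.27 (-0.14 over all genes), and leaving out replicate 1 instead gave -0.92 (-0.46 over all genes). In the latter fit 21 of 34 were lower at an unadjusted p under 0.05, beside 29.6% of all genes, and 0 passed.

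Among the genes of entry into mitosis, Cdk1, the kinase that drives it, had the highest level of the 34. Cdk1 (chromosome 10, 69335146 to 69352938, GRCm38) was at 140, 262 and 193 in the saline libraries, 268 with Cont sEV, and 218, 123 and 179 with TIS sEV. The saline and TIS sEV ranges overlapped, with means of 198 ± 61.1 and 173 ± 48.0 (SD, n = 3), and the fitted log2 difference was -0.19 (SE 0.30, limma adjusted p = 0.718). Ccnb1, which encodes cyclin B1, was at 12.7, 20.5 and 19.6 with saline, 21.4 with Cont sEV, and 20.7, 7.44 and 10.2 with TIS sEV. Its highest saline and highest TIS sEV values were nearly equal, and the difference was -0.52 (SE 0.39, adjusted p = 0.450 in limma). Ccnb2, for cyclin B2, ran from 36.6 to 57.3 with saline and from 18.2 to 48.2 with TIS sEV. Ccna2, for cyclin A2, which acts in S phase and G2, ran from 23.9 to 40.8 and from 16.6 to 37.7. Cdkn3, a phosphatase that acts on Cdk1 and its relatives, had close means of 26.6 ± 5.17 with saline and 26.5 ± 8.03 with TIS sEV (SD, n = 3). Foxm1, a transcription factor of G2 genes, was at 7.91, 9.98 and 9.59 with saline, 8.83 with Cont sEV, and 11.9, 2.54 and 5.58 with TIS sEV. TIS sEV replicate 1 was its highest library and TIS sEV replicate 2 its lowest, so that the TIS sEV values lay on both sides of the saline range.

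The kinases of spindle assembly were lowest in the same libraries. Plk1, which acts in centrosome maturation and spindle assembly, was at 16.7, 28.4 and 29.0 with saline, 29.6 with Cont sEV, and 22.5, 8.14 and 16.9 with TIS sEV. Its difference was -0.67 (SE 0.40, limma adjusted p = 0.372). Aurka, the Aurora kinase of spindle poles, ran from 14.6 to 23.5 with saline and from 6.97 to 21.2 with TIS sEV, and Nek2, a kinase of centrosome separation, from 9.77 to 19.7 and from 5.67 to 14.9. In all 3 kinase genes, TIS sEV replicate 2 was the lowest library and TIS sEV replicate 1 lay within the saline range.

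The chromosomal passenger complex, which corrects faulty attachments of chromosomes to the spindle, had a median difference of -0.21. Aurkb, its kinase, was at 14.4, 27.7 and 25.0 with saline, 22.8 with Cont sEV, and 24.6, 7.02 and 10.96 with TIS sEV. Incenp, its scaffold (chromosome 19, 9872296 to 9899551), was at 47.4, 66.3 and 44.3 with saline, 130 with Cont sEV, and 60.2, 30.7 and 55.2 with TIS sEV. Birc5, which encodes survivin (chromosome 11, 117849251 to 117855743), was at 72.6, 94.8 and 93.9 with saline, 182 with Cont sEV, and 130, 76.9 and 97.2 with TIS sEV. The saline and TIS sEV values of all 3 genes overlapped. For Aurkb TIS sEV replicates 2 and 3 lay below every saline library, for Incenp replicate 2 did, and for Birc5 none did, and Incenp and Birc5 stood highest with Cont sEV. Birc5 was the only one of the 34 genes with a TIS sEV difference above 0 (0.20, SE 0.25, limma adjusted p = 0.638). On the TPM as deposited it was -0.26. Cdca8, which encodes borealin, differed by -0.28 (SE 0.33).

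The spindle checkpoint genes, which hold anaphase back until all chromosomes are attached, had the lowest median of the groups with more than 1 gene, at -0.89. Bub1 (chromosome 2, 127801122 to 127831865), a checkpoint kinase, was at 5.90, 9.98 and 7.49 with saline, 6.49 with Cont sEV, and 6.42, 1.63 and 2.35 with TIS sEV. TIS sEV replicates 2 and 3 lay below every saline library and replicate 1 above the lowest of them, with a difference of -1.10 (SE 0.42, unadjusted p = 0.0306, limma adjusted p = 0.317). Bub1b, for the inhibitor BubR1, was at 7.63, 13.9 and 13.8 with saline, 10.1 with Cont sEV, and 12.0, 3.20 and 4.52 with TIS sEV. Ttk, for the kinase Mps1 upstream of both, had the lowest mean level of the 34 genes with saline, at 5.70 ± 0.888, and was at 3.27 ± 1.85 with TIS sEV (SD, n = 3).

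The 5 kinetochore and centromere genes had fitted differences from -1.10 to -0.076, and 0 of them passed. Cenpe, a kinetochore motor, was at 10.4, 18.6 and 17.7 with saline, 14.9 with Cont sEV, and 13.5, 2.44 and 7.57 with TIS sEV, a difference of -1.10 (SE 0.52, limma adjusted p = 0.323). Cenpf, a large protein of the outer kinetochore, was at 6.99, 17.99 and 16.6 with saline, 5.88 with Cont sEV, and 11.8, 7.96 and 3.38 with TIS sEV. Its saline values differed from each other by as much as 2.57 times, the widest saline range of the 34 genes. Cenpa, the centromeric histone H3 variant, differed by -0.076 (SE 0.26), at 89.4 ± 17.2 with saline and 85.8 ± 24.5 with TIS sEV (SD, n = 3). Ndc80 and Nuf2, partners in the complex that grips microtubules, differed by -0.32 (SE 0.31) and -0.38 (SE 0.34). Of the partners of the anaphase-promoting complex, Cdc20, a coactivator, was at 34.01, 57.5 and 69.3 with saline, 85.6 with Cont sEV, and 57.0, 19.8 and 40.7 with TIS sEV. Ube2c, the ubiquitin-conjugating enzyme that serves it, was at 103, 133 and 126 with saline, 181 with Cont sEV, and 154, 62.7 and 106 with TIS sEV. In both, TIS sEV replicate 2 was the lowest library and Cont sEV the highest.

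Genes of the central spindle and cytokinesis had a median difference of -0.77, with all 5 at -0.61 or below. Anln, which encodes anillin, a scaffold of the contractile ring (chromosome 9, 22332012 to 22389188), had the largest difference of the 34. It was at 25.7, 40.1 and 35.1 with saline, 19.9 with Cont sEV, and 30.9, 6.33 and 10.3 with TIS sEV. Means were 33.6 ± 7.33 and 15.9 ± 13.2 (SD, n = 3), and the difference was -1.30 (SE 0.51, unadjusted p = 0.0333, limma adjusted p = 0.317). TIS sEV replicate 1 lay within the saline range, so the groups overlapped. Kif23 and Racgap1, partners in centralspindlin, differed by -0.88 (SE 0.42) and -0.66 (SE 0.40). Kif20a, a motor that brings passenger proteins to the midzone, and Prc1, which bundles its microtubules, differed by -0.77 (SE 0.39) and -0.61 (SE 0.37). Of the spindle genes, Kif11, the motor that pushes the poles apart, was at 5.32, 9.76 and 7.58 with saline, 9.25 with Cont sEV, and 7.29, 2.28 and 3.67 with TIS sEV. Tpx2, an activator of Aurora A, differed by -0.71 (SE 0.35), Hmmr, a spindle protein, by -0.46 (SE 0.35) and Kif2c, a motor that shortens microtubules, by -0.35 (SE 0.32).

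The chromosome genes Mki67 and Top2a are common markers of dividing cells. Mki67, which coats mitotic chromosomes, was at 9.92, 23.0 and 13.4 with saline, 13.9 with Cont sEV, and 13.6, 3.79 and 7.48 with TIS sEV. Top2a, the topoisomerase that untangles sister chromatids, was at 86.0, 154 and 115 with saline, 179 with Cont sEV, and 157, 40.7 and 91.7 with TIS sEV. TIS sEV replicate 1 lay within the saline range for Mki67 and above every saline library for Top2a, and for both genes replicate 2 was the lowest library. Their differences were -0.89 (SE 0.46) and -0.45 (SE 0.46), with limma adjusted p of 0.338 and 0.561, and that of Top2a was 0.059 without TIS sEV replicate 2.

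**Figure D3:**
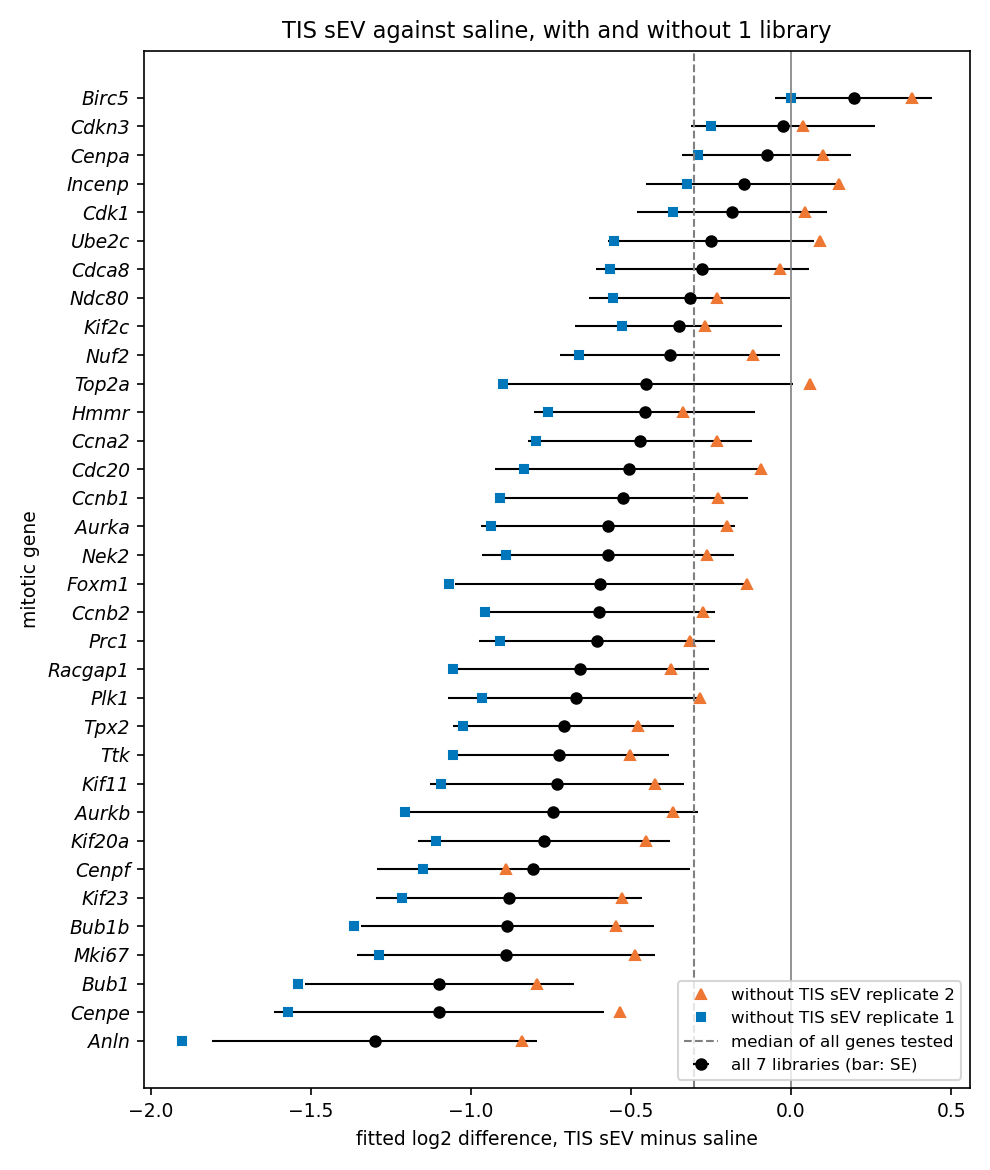
Fitted log2 difference of TIS sEV minus saline for each mitotic gene, ordered by size; black points and bars give the value and its SE with all 7 libraries, orange triangles without TIS sEV replicate 2 and blue squares without TIS sEV replicate 1. The dashed line is the median of all genes tested (-0.30). Black points lie left of 0 for 33 of 34 genes, and leaving out TIS sEV replicate 2 moves the list median to -0.27.

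How the Cont sEV tumour, a single library, stood to saline in these genes depended on the scaling. Its mean log2 level over the 34 genes, 4.83 on the coding total, lay within the saline range of 4.25 to 4.92. With size factors it was 5.12, above the saline range of 4.17 to 4.64, and with quantile normalization 5.05, above the range of 4.18 to 4.68. On the coding total, 23 of 34 had a fitted difference above 0, beside 22.3% of all genes tested, 11 were below 0, beside 77.7%, and the list median was 0.14 where that of all genes was -0.45. The list median was 0.64 with size factors and 0.59 with quantile normalization, where the medians of all genes were -0.00056 and -0.031. Its level was above every saline library for 10 of the 34, beside 12.9% of all genes, and below every saline library for 2 (Anln and Cenpf), beside 63.5%. In limma, 0 of 34 passed, as did 0 of all genes (0.0%), and at an unadjusted p under 0.05, 2 were higher, beside 1.65% of all genes, and 0 lower, beside 13.9%. These were Incenp (1.30, SE 0.43, limma adjusted p = 0.301) and Birc5 (1.07, SE 0.35, limma adjusted p = 0.301). The list median was -0.037 without saline replicate 1, 0.27 without saline replicate 2 and 0.24 without saline replicate 3, and with library weights 3 of 34 were called as higher, beside 2.51% of all genes.

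The fitted difference of TIS sEV from Cont sEV was below 0 for 33 of 34 mitotic genes, beside 35.4% of all genes tested. This is a difference of means, and single TIS sEV libraries did not all lie below Cont sEV. The mean log2 level over the 34 genes was 4.83 with Cont sEV, and 4.76, 3.52 and 3.99 in TIS sEV replicates 1, 2 and 3. For some genes, Anln and Foxm1 among them, TIS sEV replicate 1 lay above Cont sEV. The list median was -0.76, and that of all genes was 0.15. Other lists lay as low in this comparison, so the shift was not particular to the mitotic genes. Below 0 were 34 of 35 S phase genes (median -0.63), 77 of 83 other mitosis genes (-0.62) and 14 of 15 tested epithelial genes (-0.75). Incenp had the largest difference, -1.45 (SE 0.43), followed by Cdc20 (-1.23, SE 0.59) and Top2a (-1.09, SE 0.65). Cenpf, at 0.21 (SE 0.69), was the exception. In limma 0 of 34 passed (adjusted p = 0.995 for each) and 0 of all genes did (0.0%). At an unadjusted p under 0.05, 3 (Incenp, Birc5 and Cenpa) were lower, beside 0.804% of all genes, and 0 higher, beside 3.1%. Leaving out TIS sEV replicate 1 gave a list median of -1.11 (0.0088 over all genes) with 21 lower at that p, beside 2.45% of all genes. Leaving out replicate 2 gave -0.47 (0.32 over all genes) with 2 lower, beside 0.821%. This comparison and the one of Cont sEV with saline share the Cont sEV library, and both comparisons of TIS sEV share the TIS sEV libraries.

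Other genes of mitosis, taken from a list of 83 that does not overlap the 34, also lay mostly below 0. All 83 were tested, 74 had a TIS sEV difference from saline below 0, beside 73.2% of all genes, and the median was -0.51. In limma 0 passed, and at an unadjusted p under 0.05, 10 of 83 were lower, a share near the 12.6% of all genes, and 0 were higher, beside 3.03%. Among those with a mean level of at least 5, the lowest were Espl1, which encodes separase (-1.13, SE 0.66), Ect2, an activator of RhoA in cytokinesis (-1.12, SE 0.56), and Cep55, an abscission protein (-1.07, SE 0.35). Cep55 was at 6.67, 8.20 and 8.61 with saline, 4.68 with Cont sEV, and 5.71, 2.71 and 1.93 with TIS sEV, so that every TIS sEV library lay below every saline library. This held for 10 of the 83 genes, a lower share than the 19.6% of all genes. The highest were the centromere protein gene Cenpm (0.46, SE 0.36), the spindle gene Ska1 (0.29, SE 0.28) and Spc24, of the Ndc80 complex (0.10, SE 0.32).

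S phase genes, the licensing factors and enzymes of DNA replication, lay nearer to the median gene for TIS sEV against saline. The 35 of them had a median TIS sEV difference of -0.20, which is 0.11 above the median gene, with 26 below 0 and 0 passing in limma (1 lower, beside 12.6% of all genes, and 0 higher, beside 3.03%, at an unadjusted p under 0.05). The mean log2 level of the mitotic genes minus that of the S phase genes was 0.31, 0.35 and 0.49 in saline replicates 1, 2 and 3. It was 0.092 with Cont sEV, and 0.27, -0.28 and 0.0086 in TIS sEV replicates 1, 2 and 3. All 3 TIS sEV values and the Cont sEV value were below all 3 saline values, although TIS sEV replicate 1 and saline replicate 1 were 0.048 apart. With Cont sEV the S phase mean, 4.74, lay above the saline range of 3.94 to 4.57, while the mitotic mean, 4.83, lay within its saline range. Against saline, 30 of the 35 S phase genes were above 0 with Cont sEV (median 0.43), beside 22.3% of all genes. For the mitotic minus S phase level, the mean difference between TIS sEV and saline was -0.39, and -0.25 when TIS sEV replicate 2 was left out. This contrast between lists was formed after the values were seen and has no test. The median transcript length was 3140 bases for the mitotic genes and 2962 for the S phase genes. Transcripts under 1500 bases were 1 of the 34 and 6 of the 35, and those of 5000 bases or more were 4 in each list. The part of transcript length in this contrast was not tested.

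**Figure D4:**
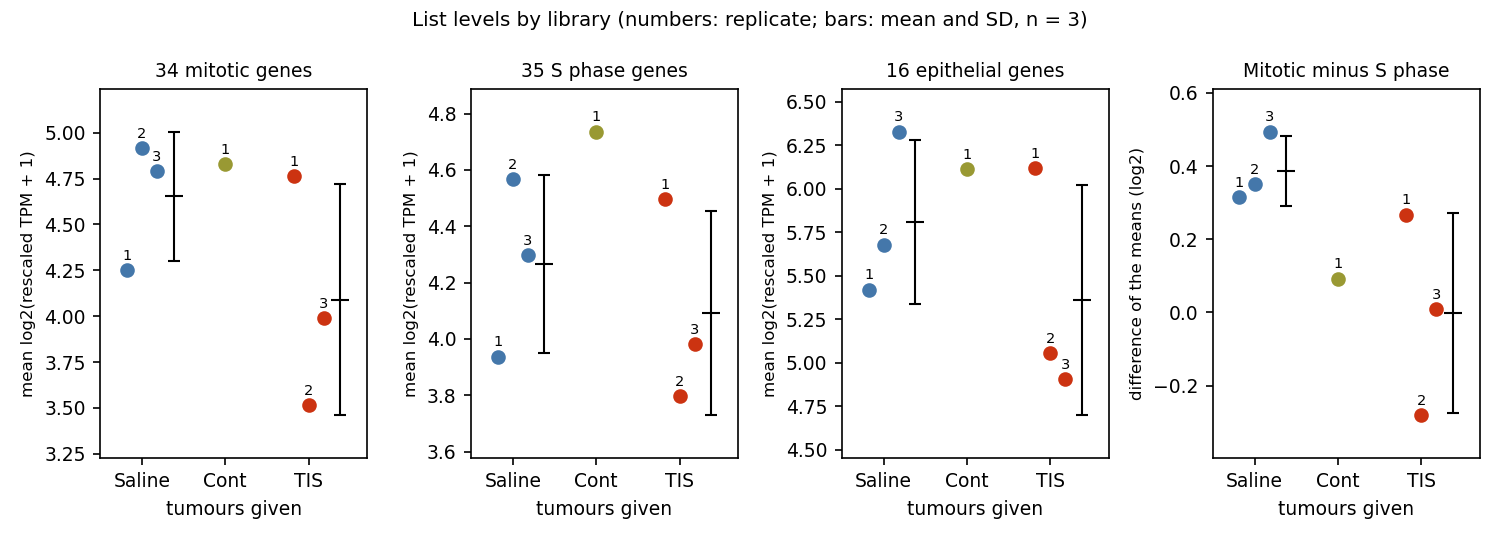
Mean log2(rescaled TPM + 1) over the 34 mitotic, 35 S phase and 16 epithelial genes, and the mitotic mean minus the S phase mean, by group; points are libraries with their replicate number, and bars give the mean and SD of groups with n = 3. TIS sEV replicates 2 and 3 are low in the first 3 panels, and in the last all TIS sEV points lie below the saline points.

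Markers of the tumour epithelium moved with the mitotic genes in several libraries. Over 16 epithelial genes, of which 15 were tested (Krt5 was not), the mean log2 level was 5.42, 5.68 and 6.33 with saline, 6.11 with Cont sEV, and 6.12, 5.06 and 4.90 with TIS sEV. Their summed level was 3169 to 6482 with saline, 4344 with Cont sEV and 2185 to 4596 with TIS sEV, and of the 16 only Krt5, at 0 to 1.90, reached 0 in any library. The 15 had a median TIS sEV difference from saline of -0.61, with 14 below 0. The mitotic mean minus the epithelial mean was -1.17, -0.76 and -1.54 with saline, -1.28 with Cont sEV, and -1.36, -1.54 and -0.91 with TIS sEV, and the groups overlapped. TIS sEV replicate 3, low in mitotic genes, was thus among the higher libraries relative to epithelial genes. With the epithelial mean as a covariate in the fit, an alternative chosen after seeing the data, the list median was -0.19 and that of all genes was -0.17. The lists for other cell types differed from saline by medians of -0.14 (leukocyte), -0.060 (macrophage and monocyte), -0.34 (neutrophil), 0.22 (T and B lymphocyte), -0.43 (fibroblast), 0.065 (endothelial), -0.25 (skeletal muscle), 0.061 (keratinocyte and hair follicle) and -0.39 (erythroid), with 0 genes passing. Ptprc and Cd53, of leukocytes, ranged over the 7 libraries from 1.78 to 8.30 and from 14.8 to 60.0, and the macrophage genes Adgre1 and Csf1r from 2.73 to 8.80 and from 11.8 to 36.6. The neutrophil genes S100a8 and S100a9 ranged from 166 to 2958 and from 479 to 7503, the T cell genes Cd3e and Cd3d from 0 to 3.93 and from 2.10 to 15.6, and the collagen genes Col1a1 and Col1a2 from 16.7 to 44.2 and from 13.4 to 40.6. Pecam1 and Cdh5, of endothelium, ranged from 5.57 to 36.4 and from 1.69 to 11.4, the muscle genes Acta1 and Ckm from 0.067 to 29.3 and from 0 to 4.86, the globin genes Hba-a1 and Hba-a2, near-identical copies whose split is uncertain, from 8.08 to 76.3 and from 14.6 to 120, and Krt10 from 4.53 to 9.90, with Krt1 listed at 0 throughout. Endothelial genes summed to 105 in TIS sEV replicate 3, against 19.3 to 53.5 elsewhere, neutrophil genes to 10765 in saline replicate 1, against 882 to 3434, and skeletal muscle genes to 84.1 in saline replicate 3, against 4.99 to 12.6. The part of these cells in the levels of the mitotic genes was not tested.

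The differences of the mitotic genes also ran with transcript length, as did those of all genes. Across the 34 genes, which are not independent replicates, Spearman's rho between the fitted difference and the length of the longest coding transcript was -0.48 for TIS sEV against saline, beside -0.44 across 11429 tested genes with a length. For Cont sEV against saline it was -0.49, beside -0.42, and for TIS sEV against Cont sEV it was 0.063, beside 0.083. The points share their libraries. The 4 mitotic genes with transcripts of 5000 bases or more (Cenpf, Mki67, Cenpe and Top2a) had a median difference from saline of -0.85 with TIS sEV, and the 29 of 1500 to 5000 bases a median of -0.57. The medians over all tested genes were -0.53 and -0.32. Transcripts of 5000 bases or more held 4.29% to 5.11% of the coding TPM in the saline libraries, 3.14% with Cont sEV, and 4.31%, 2.59% and 3.63% with TIS sEV. The part of transcript length, or of RNA quality, in these differences was not tested.

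**Figure D5:**
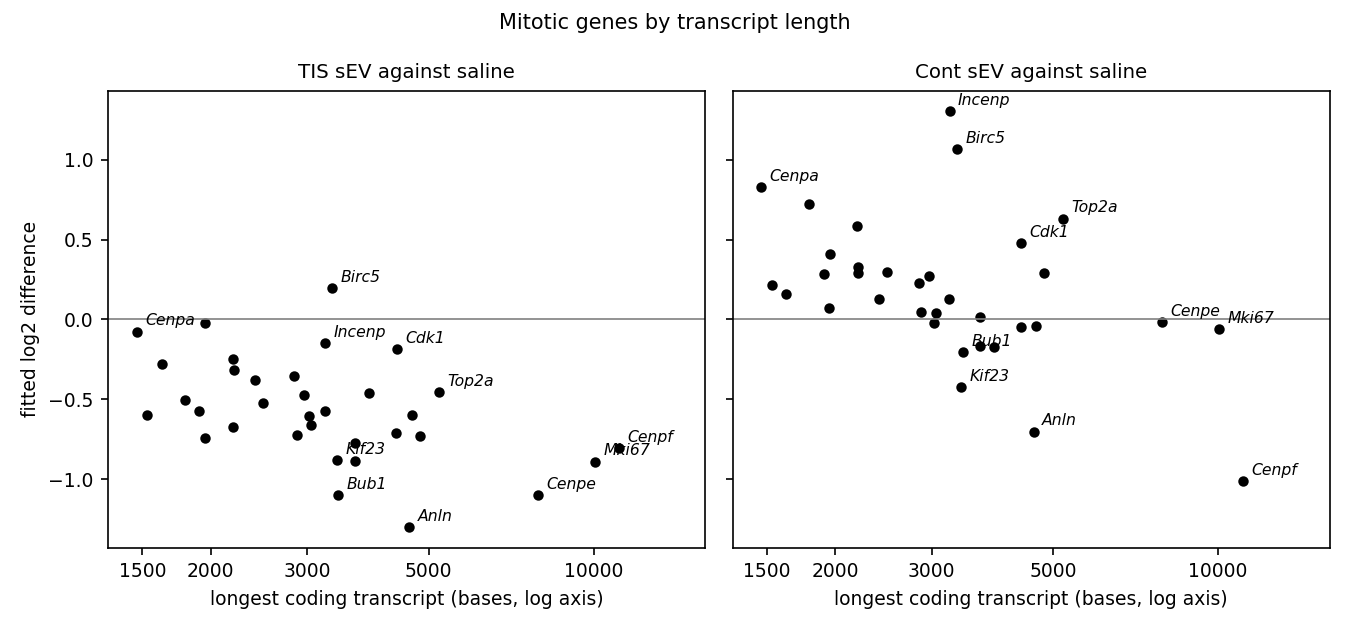
Fitted log2 difference against the length of the longest coding transcript (log axis) for the 34 mitotic genes, for TIS sEV (left) and Cont sEV (right) against saline. Longer transcripts lie lower in both panels (Spearman's rho -0.48 and -0.49), with Cenpf, Cenpe and Mki67 at the right and Cenpa at the left; Incenp and Birc5 stand above genes of like length with Cont sEV.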

How the data were processed

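The authors deposited 1 table of TPM per gene for 7 libraries, each column summing to 1000000 over all entries. Salmon 1.4.0 and build GRCm38.p6 are named in the submitters' processing notes, as are DESeq2 1.28.0, Trim Galore 0.6.6 and FastQC 0.11.9; the summing to genes is not given in the sources used here. Columns named CE and NcE were read as Cont sEV and TIS sEV from the protocols, and every vesicle comparison rests on that reading. Symbols, types and coordinates came from GENCODE M21 (GRCm38).

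Nuclear protein-coding TPM was rescaled to 1000000 per library. Genes at 1 or more in at least 3 libraries were tested with limma 3.58.1 (R 4.3.3) on log2(rescaled TPM + 1), which understates changes of low genes, in 1 fit over 3 groups (4 residual and 4.11 prior degrees of freedom), so that the Cont sEV library was assumed to vary like the others. Tests were two-sided with an intensity trend and Benjamini-Hochberg adjustment over all tested genes, threshold 0.05. The fitting code was tested on simulated data. Of genes changed by 2 log2 units there, 64% were called for TIS sEV against saline. The shares were 40% for TIS sEV against Cont sEV and 34% for Cont sEV against saline. Every fitted difference of the 34 genes was smaller than that, so 0 passing does not show that they were unchanged. Members and lists were chosen with earlier results of these data known. The rule for named genes took all 34 members, the 3 highest and 3 lowest of the other mitosis list at a mean of at least 5, any of that list that passed, and the first 2 genes of each cell type list. Alternatives were other scalings, pseudocounts, filters, weights and sample sets.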

Additional observations from a re-analysis of the deposited data

How the results depend on the processing

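Of the 34 mitotic genes, 23 kept the sign of their TIS sEV difference from saline under every one of the 19 alternatives run. Several of these could not turn a sign, since they leave each gene's fitted difference unchanged. They were the fits with no trend, no filter, a higher minimum, the 2 groups alone, the replicate block and no Cont sEV library. Signs turned with size factors for Cdk1 (0.15), Cdkn3 (0.30), Incenp (0.19), Cdca8 (0.049), Cenpa (0.26), Ndc80 (0.0045) and Ube2c (0.088). They turned with quantile normalization for Cdkn3 (0.27), Incenp (0.055), Cdca8 (0.018), Cenpa (0.033), Ndc80 (0.037), Nuf2 (0.013) and Kif2c (0.042), and on TPM as deposited for Birc5 (-0.26). With the epithelial covariate they turned for Cdk1 (0.0017), Cdkn3 (0.22), Cdca8 (0.0024), Cenpa (0.17) and Ube2c (0.025). Leaving out 1 library at a time gave -0.41 to 0.043 for Cdk1, -0.25 to 0.14 for Cdkn3, -0.33 to 0.15 for Incenp, -0.29 to 0.099 for Cenpa, -0.55 to 0.089 for Ube2c and -0.90 to 0.059 for Top2a, each positive without TIS sEV replicate 2. Signs also turned without saline replicate 2 for 4 genes (Cdk1, Cdkn3, Incenp and Cenpa), without saline replicate 3 for 2 (Cdkn3 and Cenpa) and without TIS sEV replicate 3 for 1 (Cdkn3). Incenp was at 0.086 without saline replicate 1 and TIS sEV replicate 2 together, also chosen after seeing the data. Size factors moved the median of all genes for TIS sEV against saline from -0.30 to -0.013, and the list median there was -0.27.

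In limma, library weights called 4790, 16 and 3210 coding genes for TIS sEV against saline, TIS sEV against Cont sEV and Cont sEV against saline, where equal weights called 0, 0 and 0. Of the 34 mitotic genes these weights called 22 for TIS sEV and 3 for Cont sEV against saline. Of the 83 other mitosis genes they called 48 and 12, in either direction. Beside these stand 4790 and 3210 of all 11444 genes tested. For TIS sEV both lists had a higher share called in either direction than all genes, and for Cont sEV both had a lower share. The 3 mitotic genes called for Cont sEV were all higher, a larger share than the 2.51% of all genes called as higher. TPM as deposited gave 19, 2 and 5 coding genes, and no filter 1, 48 and 51. The fit of the 2 groups alone gave 3 for Cont sEV against saline. Without saline replicate 1 and TIS sEV replicate 2 there were 2 for TIS sEV against Cont sEV and 3 for Cont sEV against saline. Leaving out 1 library gave 0 to 1 for TIS sEV against saline and 0 to 1 for TIS sEV against Cont sEV. The median of the other mitosis genes for Cont sEV against saline was 0.63 with quantile normalization and 0.52 with size factors. On TPM as deposited the mean log2 level of the mitotic genes was 4.13 with saline and 3.23 with TIS sEV, in place of 4.65 and 4.09. The cause of these changes was not tested.

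The replicate block gave 3 coding genes for TIS sEV against saline and 0 mitotic genes. Same-numbered saline and TIS sEV libraries did not deviate together (r = -0.29, -0.018 and -0.050 across genes). Differently numbered pairs ran from -0.16 to 0.24. Deviations from a group mean cancel out within the group, so these values cannot tell whether same-numbered libraries shared a batch. TPM holds no depth, so precision at low levels is unknown.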

Other observations

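The anaphase-promoting complex itself lay near the median gene. Its 15 listed subunits and partners with the activator Fzr1 had a median TIS sEV difference from saline of -0.17, above the median gene by 0.13, with 6 of 16 above 0 and 0 passing in limma (1 higher, beside 3.03% of all genes, and 1 lower, beside 12.6%, at an unadjusted p under 0.05). Anapc15, a small subunit that promotes release of the checkpoint complex, was at 19.0, 25.2 and 20.0 rescaled TPM with saline, 30.4 with Cont sEV, and 33.6, 41.3 and 53.1 with TIS sEV. Every vesicle library lay above every saline library. For TIS sEV this held for 1 of the 16 genes, beside 5.39% of all genes, and for Cont sEV for 4, beside 12.9%. The TIS sEV difference was 0.95 (SE 0.25, unadjusted p = 0.00568, limma adjusted p = 0.317). Anapc2, the cullin subunit, differed by -0.80 (SE 0.26, limma adjusted p = 0.317). Both were singled out after their values were seen.

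The 11 listed regulators of mitotic transcription (MuvB, B-Myb and DREAM) had a median TIS sEV difference of -0.34, near that of all genes (-0.30), with 10 below 0 and 0 passing in limma (2 lower, beside 12.6% of all genes, and 0 higher, beside 3.03%, at an unadjusted p under 0.05). The 2 were Tfdp1 and Lin9. Tfdp1, an E2F partner, was at 44.2, 67.8 and 76.0 with saline, 29.7 with Cont sEV, and 49.1, 23.7 and 24.3 with TIS sEV, and the groups overlapped. Its difference was -0.98 (SE 0.35, limma adjusted p = 0.317). Lin9, a MuvB subunit, was at 8.22, 9.62 and 10.5 with saline, 5.99 with Cont sEV, and 7.31, 2.57 and 4.98 with TIS sEV, so that every vesicle library lay below every saline library. For TIS sEV this held for 3 of the 11 genes, beside 19.6% of all genes, and for Cont sEV for 7, beside 63.5%. Its difference was -0.89 (SE 0.35, limma adjusted p = 0.317). Mybl2, which encodes B-Myb, ran from 3.36 to 5.53 with saline and from 2.72 to 5.92 with TIS sEV. Tfdp1, Lin9 and Mybl2 were also singled out after their values were seen.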
